A study of Bos taurus with 129 samples.

Results

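Eosinophils and basophils are rare granulocytes of the blood, and 8 genes that mark them were followed here in whole blood of feeder cattle: IL5RA, CCR3, HRH4, GATA2, FCER1A, MS4A2, CPA3 and HDC. They were taken by symbol from a table of 32395 genes, all 8 were found in it, and all 8 were among the 17853 genes that passed the filter on low counts. The 26 animals were commercial crossbred beef steers, cattle at high risk of respiratory disease that were trucked in before the study began. On day 0 every animal received a respiratory virus vaccine and injectable doramectin, an antiparasitic drug. The vaccine was repeated between the blood draws of day 13 and day 28. Mineral supplements were compared, and no animal went without one. AAC (8 animals) was copper, manganese and zinc complexed to amino acids in feed, with cobalt as glucoheptonate. INR (11 animals) was copper, cobalt, manganese and zinc as sulfates in feed. COMBO (7 animals) was AAC plus a trace mineral and vitamin drench before shipment, at day 0 and with any treatment for illness. The labels also mark 14 animals as diseased (bovine respiratory disease, BRD) and 12 as healthy, without the day of diagnosis, and animal age is not given in the sources used here. The BRD animals were 4 AAC, 3 COMBO and 7 INR, and the healthy animals were 4 of each supplement.

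IL-5 is the growth and survival factor of eosinophils, and IL5RA encodes the chain of its receptor that binds it. CCR3 is the receptor through which eotaxin-type chemokines draw eosinophils and basophils into tissue, and HRH4 is the histamine receptor found mainly on blood-derived immune cells. Basophils, like mast cells, carry the high-affinity IgE receptor, of which FCER1A encodes the IgE-binding alpha chain and MS4A2 the beta chain. When allergen or parasite antigen cross-links bound IgE, these cells release granules that hold histamine, which HDC makes from histidine, and proteases such as CPA3. GATA2 is a transcription factor that basophils, mast cells and eosinophil precursors share, and it is also active in blood stem cells.

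Blood was drawn at days 0, 13, 28, 45 and 60, giving 1 library for each animal and day except that the day 13 library of 1 healthy AAC animal is missing. Total counts ran from 31613545 to 61692136 per library, with a median of 44268685, and every library correlated at 0.959 or higher with the median library. Levels below are CPM, counts scaled to a common library size, with TMM, a normalization that corrects for library composition. In a library 3 counts correspond to between 0.0482 and 0.0914 CPM, a range that comes from library size and scaling. It is a guide to the limit of counting only. Library numbers ran in day order, so day and library order cannot be told apart, and neither can day and the age of the animals, their time on feed or the time since vaccination and doramectin. In whole blood, fewer cells of a type and less RNA per cell cannot be told apart either.

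CCR3 had the most counts of the 8 genes, with a mean of 37 ± 21 CPM (SD, all libraries) and a range of 12.4 to 127.7 CPM. IL5RA had a mean of 18 ± 19 CPM and ran from 1.55 to 109.2 CPM. HRH4 averaged 12.6 ± 6.26 CPM, GATA2 8.48 ± 5.00 CPM, MS4A2 6.49 ± 4.38 CPM and FCER1A 6.41 ± 2.59 CPM. CPA3 averaged 1.02 ± 0.754 CPM and had no count in 3 libraries, all of INR animals at day 0. HDC averaged 0.125 ± 0.0808 CPM, never exceeded 15 counts, and had no count in 25 libraries, so its values rest on very few reads. Counts are not corrected for gene length, so the order of these CPM values is not an order of transcript numbers. CCR3 values carry one more uncertainty, since in the RefSeq annotation the CCR3 gene lies inside the span of LOC529196 and the strand setting used for counting is not given in the sources used here. LOC529196 averaged 105.1 ± 70.2 CPM, and its correlation with CCR3 over all libraries was 0.12.

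**Figure D1:**
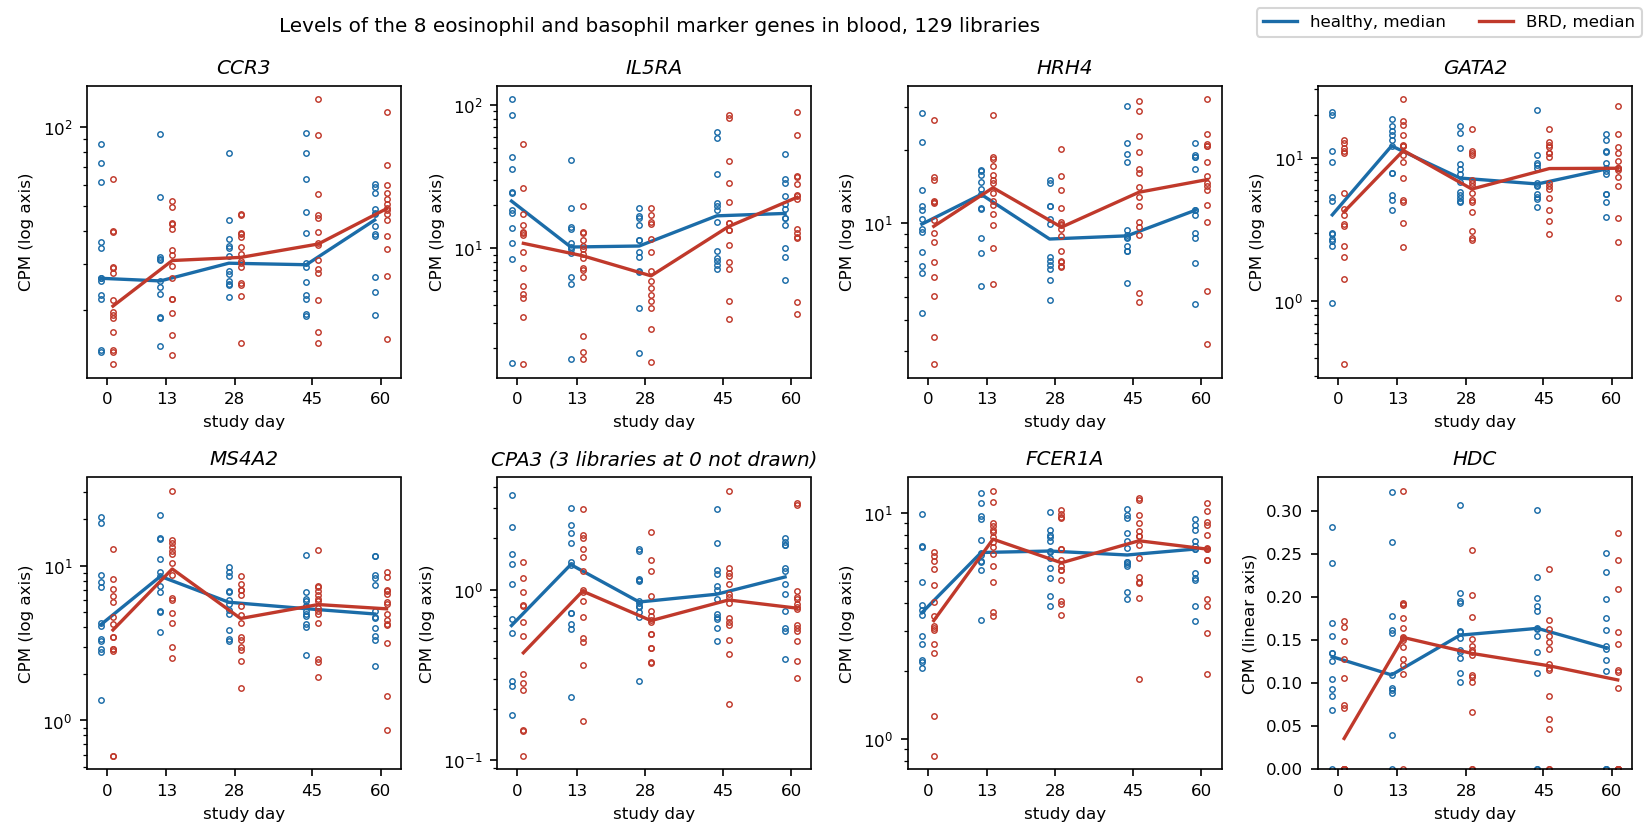
CPM of each of the 8 genes in each library (circles) by study day, for healthy (blue) and BRD (red) cattle, with the median of each as a line; axes are logarithmic except for HDC, and 3 libraries with no CPA3 count are not drawn. IL5RA is low at days 13 and 28, MS4A2 stands high at day 13 alone, and FCER1A is higher at every later day than at day 0.

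The first question was how the 8 genes moved over the feeding period. Each later day was compared with day 0 in edgeR with the animal as a block, so that every animal served as its own control, and a gene was called at a false discovery rate (FDR) below 0.10 over all 17853 genes. Day 0 differed widely from the later days, and the share of all genes called higher or lower is the background for each count. At day 13, 17.9% of all genes were called higher and 16.5% lower, and of the 8 marker genes 6 were higher (GATA2, CPA3, MS4A2, FCER1A, HRH4 and HDC) and 1 was lower (IL5RA). At day 28, with 19% of all genes higher and 18.8% lower, 3 were higher (GATA2, CPA3 and FCER1A) and IL5RA was lower. At day 45, with 15.1% and 17% of all genes, 5 were higher (CCR3, HRH4, GATA2, CPA3 and FCER1A) and none was lower. The same 5 were higher at day 60, when 16.7% of all genes were higher and 18.3% lower. The median log2 fold change of the 8 genes was 0.78, 0.31, 0.46 and 0.53 at the 4 later days, against medians between -0.01 and 0.01 over all genes tested. The 8 genes were chosen with earlier results of these data known, and several were correlated with each other. These counts and medians are therefore a description and no test of the set.

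**Figure D2:**
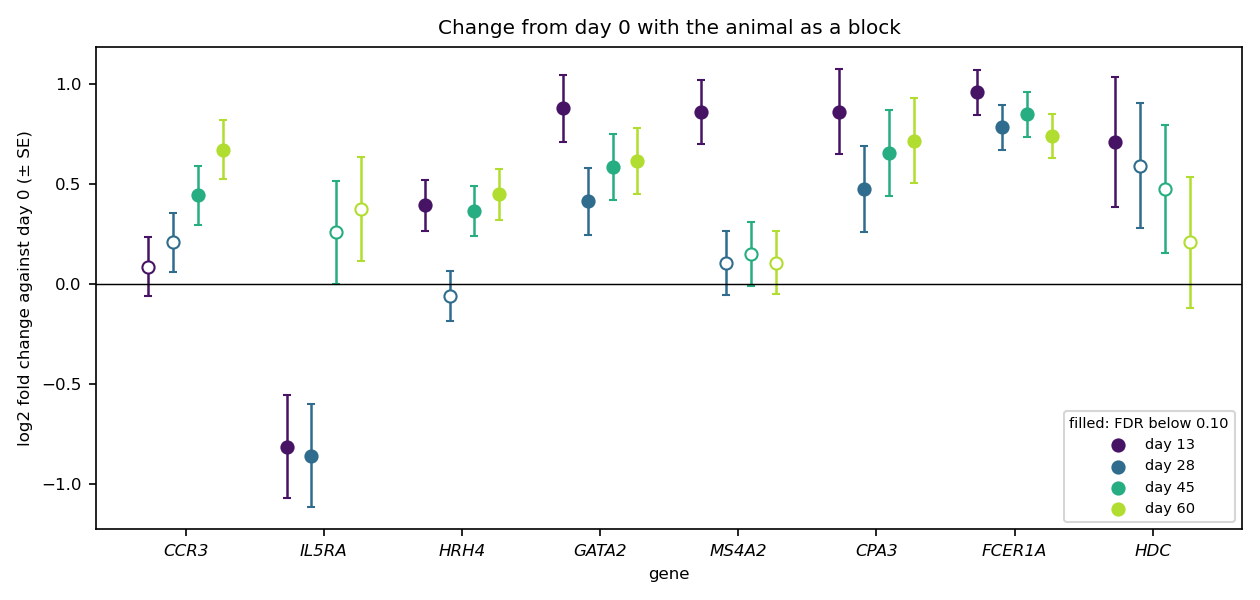
Log2 fold change of each gene at days 13, 28, 45 and 60 against day 0 from the fit with the animal as a block, with standard errors; filled points have an FDR below 0.10. IL5RA is the only one of the 8 with called values below 0, at days 13 and 28, and FCER1A is called higher at all 4 days.

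IL5RA fell and then returned. Its level at day 0 ran from 1.55 CPM through a median of 13.4 to 109.2 CPM. At day 13 the lowest, median and highest values were 1.67, 9.88 and 41.2 CPM, and at day 28 they were 1.6, 9.03 and 19.1 CPM. The lowest animals were alike on all 3 days and the groups overlapped, while the high values of day 0 were missing at day 28. The log2 fold change was -0.81 ± 0.26 (SE, FDR = 0.012) at day 13 and -0.86 ± 0.26 (FDR = 0.0066) at day 28, and IL5RA was lower than at day 0 in 17 of 25 and 17 of 26 animals. From day 28 to day 45 it rose by 1.12 ± 0.26 on the log2 scale (FDR = 0.0006), a 2.17-fold difference, and the day 45 values ran from 3.18 through 14.9 to 85.4 CPM. At day 60 the median was 19.5 CPM, and neither day 45 (0.26 ± 0.26, FDR = 0.51) nor day 60 (0.38 ± 0.26, FDR = 0.29) passed the test against day 0.

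The course of IL5RA was not alike in the healthy and BRD animals when each was fitted alone. Among healthy animals the median was 21.3 CPM at day 0, 10.17 at day 13, 10.34 at day 28, 16.8 at day 45 and 17.44 at day 60. Among BRD animals it was 10.8, 8.84, 6.40, 14.1 and 22.6 CPM on the same days. In the healthy animals alone IL5RA was lower at day 13 (-1.11, FDR = 0.038) and at day 28 (-1.50, FDR = 0.0014), when 10 of 12 animals were below their own day 0, and the later days had -0.50 (FDR = 0.44) and -0.43 (FDR = 0.46). In the BRD animals alone days 13 and 28 had -0.45 (FDR = 0.42) and -0.18 (FDR = 0.80), and IL5RA was higher at day 45 (0.96, FDR = 0.043) and at day 60 (1.12, FDR = 0.020), when 12 of 14 animals were above their own day 0. The test of the difference itself, an F-test of the 4 changes from day 0 between the labels, gave IL5RA an unadjusted p below 0.05 and an FDR of 1.0 over all genes, so the difference between the labels was not called. That test called none of the 8 genes and 0% of all genes by edgeR, with 322 genes at p below 0.05 before adjustment, and DESeq2 called 0.

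CCR3 rose late. Its lowest, median and highest values were 12.4, 26.1 and 85.9 CPM at day 0, 13.4, 29.4 and 94.3 CPM at day 13, and 14.9, 31.5 and 79.8 CPM at day 28. At day 45 they were 14.98, 33.1 and 127.7 CPM and at day 60 15.4, 46.7 and 113.8 CPM. The groups overlapped on every day, and the median of day 60 was the highest of the 5. The log2 fold change was 0.09 ± 0.15 (FDR = 0.71) at day 13 and 0.21 ± 0.15 (FDR = 0.29) at day 28, and CCR3 was called at day 45 (0.44 ± 0.15, FDR = 0.018) and day 60 (0.67 ± 0.15, FDR = 0.0002). At day 60, 20 of 26 animals were above their own day 0, 12 of 14 in BRD and 8 of 12 in healthy cattle. Fitted alone, the BRD animals had 0.72 (FDR = 0.0074) at day 45 and 1.03 (FDR = 0.0002) at day 60, and the healthy animals 0.15 (FDR = 0.76) and 0.28 (FDR = 0.44). The test of that difference did not call CCR3 (FDR = 1.0).

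HRH4 rose, fell back and rose again. Its median was 9.87 CPM at day 0, 13.32 at day 13, 9.63 at day 28, 10.9 at day 45 and 14.4 at day 60, within a total range of 2.64 to 32.3 CPM. Values overlapped between all days, and at day 28 the 26 animals were split, 12 above and 14 below their own day 0. Those above were 9 of 14 BRD and 3 of 12 healthy animals. HRH4 was called higher at day 13 (0.39 ± 0.13, FDR = 0.014), day 45 (0.36 ± 0.12, FDR = 0.021) and day 60 (0.45 ± 0.13, FDR = 0.0039), with 21 of 25, 19 of 26 and 19 of 26 animals above their own day 0. In BRD cattle these were 13 of 14, 13 of 14 and 11 of 14, and in healthy cattle 8 of 11, 6 of 12 and 8 of 12. The test of the changes from day 0 between the labels did not call HRH4. Day 28 had -0.06 ± 0.13 (FDR = 0.76). Between neighbouring days HRH4 fell from day 13 to day 28 (-0.45 ± 0.13, FDR = 0.055) and rose from day 28 to day 45 (0.42 ± 0.12, FDR = 0.0079). Without animal 39 the first of these steps had an FDR of 0.111.

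FCER1A, the IgE-binding chain, rose by day 13 and stayed up. Its lowest, median and highest values were 0.841, 3.52 and 9.91 CPM at day 0 and 3.37, 7.48 and 12.6 CPM at day 13. At days 28, 45 and 60 the medians were 6.53, 7.09 and 6.92 CPM, and the ranges still overlapped that of day 0. The log2 fold change was 0.96 ± 0.11 at day 13 (FDR = 5.4e-11), 0.78 ± 0.11 at day 28 (FDR = 1.5e-08), 0.85 ± 0.11 at day 45 (FDR = 1.7e-09) and 0.74 ± 0.11 at day 60 (FDR = 9.6e-08). It was above its own day 0 in 24 of 25, 24 of 26, 25 of 26 and 21 of 26 animals. Among BRD cattle that was 14 of 14 animals at days 13, 28 and 45. FCER1A was called at all 4 days in the healthy animals alone and in the BRD animals alone.

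MS4A2, the beta chain of the same receptor, was higher at day 13 and not at the later days. Its lowest, median and highest values were 0.591, 4.16 and 20.8 CPM at day 0, 2.54, 8.73 and 30.6 CPM at day 13 and 1.63, 5.33 and 9.77 CPM at day 28. The values of these days overlapped, and the high end of day 13 was gone at day 28. The log2 fold change at day 13 was 0.86 ± 0.16 (FDR = 1.6e-05), with 21 of 25 animals above their own day 0, 13 of 14 in BRD and 8 of 11 in healthy cattle. MS4A2 then fell from day 13 to day 28 by 0.75 ± 0.16 on the log2 scale (FDR = 0.0024). Days 28, 45 and 60 had 0.10, 0.15 and 0.11 against day 0, with FDR between 0.53 and 0.66.

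GATA2 was called higher on all 4 days. Its median was 4.21 CPM at day 0, 12 at day 13, 6.55 at day 28, 6.67 at day 45 and 8.45 at day 60, and single animals ran from 0.364 to 25.6 CPM. Its log2 fold change was 0.88 ± 0.17 at day 13 (FDR = 2.5e-05), with 22 of 25 animals above their own day 0. It was 0.41 ± 0.17 at day 28 (FDR = 0.049), 0.58 ± 0.17 at day 45 (FDR = 0.005) and 0.61 ± 0.17 at day 60 (FDR = 0.0029). Without animal 43 the value at day 28 had an FDR of 0.139. The fall from day 13 to day 28 (-0.47 ± 0.17, FDR = 0.15) did not pass the test.

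CPA3, the granule protease, moved with few reads. Its median was 0.545 CPM at day 0, 0.996 at day 13, 0.772 at day 28, 0.891 at day 45 and 0.853 at day 60, or between 24 and 41 counts in the median library. CPA3 was called higher at each day, with log2 fold changes of 0.86 ± 0.21 (FDR = 0.0013), 0.47 ± 0.21 (FDR = 0.083), 0.65 ± 0.21 (FDR = 0.015) and 0.72 ± 0.21 (FDR = 0.0069). It was above its own day 0 in 21 of 25, 19 of 26, 18 of 26 and 18 of 26 animals. The call at day 28 was lost in 12 of the 26 fits that left out 1 animal.

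HDC, the enzyme that makes histamine, stayed near the limit of counting. It had no count in 8 of 26 libraries at day 0, 2 of 25 at day 13, 2 of 26 at day 28, 4 of 26 at day 45 and 9 of 26 at day 60. Its median was 0.099 CPM at day 0 and 0.152 CPM at day 13, which is 4 and 6 counts. The log2 fold change at day 13 was 0.71 ± 0.32 (FDR = 0.091), and this call was lost in 12 of the 26 fits that left out 1 animal. The later days had 0.59 (FDR = 0.15), 0.48 (FDR = 0.29) and 0.21 (FDR = 0.68).

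The comparisons between neighbouring days, which were added after the first results were seen, give the scale of these steps. From day 13 to day 28, 1.13% of all genes were called higher and 0.891% lower, and of the 8 genes MS4A2 and HRH4 were lower. The vaccine was repeated within this interval, and its part in these falls was not tested. From day 28 to day 45, 13.5% of all genes were higher and 16.5% lower, and IL5RA and HRH4 were higher. From day 45 to day 60, 5.7% were higher and 3.61% lower, and none of the 8 genes was called or had an unadjusted p below 0.05 by edgeR, nor was any called by DESeq2.

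Other cells of the blood moved over the same days. The 8 erythroid marker genes tested included 7 that were higher at day 13, led by HBA (4.00), ALAS2 (3.66) and HBB (3.72), the haemoglobin chains and the first enzyme of haem synthesis. Their summed level had a median of 159.2 CPM at day 0, 2544 at day 13, 959.7 at day 28, 1859 at day 45 and 870.9 at day 60. Of 9 platelet genes, 8, 7, 4 and 7 were higher at the 4 days and none was lower. Of 8 neutrophil genes, 5, 5, 4 and 6 were lower and none was higher, with S100A12 at -0.84 at day 13 and -1.02 at day 60, and of 10 monocyte genes 5, 6, 4 and 7 were lower and 2 were higher on each day, with CD14 at -1.19 at day 13 and -1.47 at day 60. Of 9 T cell genes, 1 was higher at day 13 and 0 were called later. Summed medians at day 0 were 2668 CPM for neutrophil, 4519 for monocyte, 1713 for T cell and 2627 for B cell genes, so the main cell types of whole blood were all present. The part that these shifts play in the levels of the 8 genes was not tested.

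FCER1A and GATA2 are also expressed outside basophils, in dendritic cells and in progenitors. Of 10 dendritic cell genes tested, 1 was higher and 2 were lower at day 13, 3 and 3 at day 28, 3 and 2 at day 45, and 0 and 3 at day 60, and their summed level had medians of 951.5, 995.2, 967.8, 1031 and 964.5 CPM from day 0 to day 60. Of 8 progenitor genes, 2 were higher and 1 was lower at day 13, with CD34 at 0.76, 0 were called at day 28, 3 were higher and 2 lower at day 45, and 1 was higher at day 60. Their summed level had medians of 36.7, 34.3, 34.3, 38.7 and 40.34 CPM. The part of either cell type in the levels of FCER1A and GATA2 was not tested.

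The second question was whether cattle labelled BRD and healthy differed. In edgeR, with each supplement weighted equally, none of the 8 genes was called at any day, and neither was any by DESeq2. The share of all genes called was 0.0168% at day 0, 0% at day 13, 0.0056% at day 28, 0% at day 45 and 0.0056% at day 60, with 1273, 646, 1536, 739 and 622 genes at p below 0.05 before adjustment, while DESeq2 called 90, 35, 29, 25 and 17. Of the 8 genes, 2 had an unadjusted p below 0.05 at day 0 (IL5RA and HDC), 1 at day 60 (HDC), and 0 at the other days. Pens were not shared evenly: all 4 healthy COMBO animals were in pen 5 and all 3 BRD COMBO animals in pen 6, and pen 7 held 4 BRD animals of INR, so pen and label cannot be told apart there. The paper reports that steers were moved between pens during the study, so a pen number stands for a group of animals, not a fixed place. In the pens that held both labels 1645 genes were called at day 0, over 65 at day 13, then 65, 4 and 12, and none of the 8 genes was among them. Neither that fit nor the main fit of the labels had the animal as a block, so libraries of an animal were treated as independent.

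Among the 7 genes other than HDC, IL5RA at day 0 had the largest difference in size. In the 12 healthy animals it ran from 1.58 through a median of 21.3 to 109.2 CPM, and in the 14 BRD animals from 1.55 through 10.8 to 53.5 CPM. The groups overlapped over most of their range, and the 2 highest values were healthy animals. The log2 fold change of BRD minus healthy was -1.27 ± 0.48 (FDR = 0.46), and -0.61 ± 0.50 (FDR = 0.52) in the pens that held both labels, which had no COMBO animals. It was -0.45 ± 0.49 at day 13, -0.20 ± 0.47 at day 28, 0.26 ± 0.47 at day 45 and 0.42 ± 0.47 at day 60, none of which had an unadjusted p below 0.05.

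HDC had no count in 7 of 14 BRD animals and in 1 of 12 healthy animals at day 0. At day 60 it had none in 6 of 14 BRD and 3 of 12 healthy animals. The fitted log2 fold change was -2.23 ± 0.73 (FDR = 0.32) at day 0 and -1.88 ± 0.71 (FDR = 1.0) at day 60. All 3 BRD animals on COMBO were at 0 on both days, so these fitted values depend on the prior count and give no size of the difference. The other 6 genes lay between -0.88 (CPA3, day 0) and 0.33 (HRH4, day 45) over the 5 days.

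**Figure D3:**
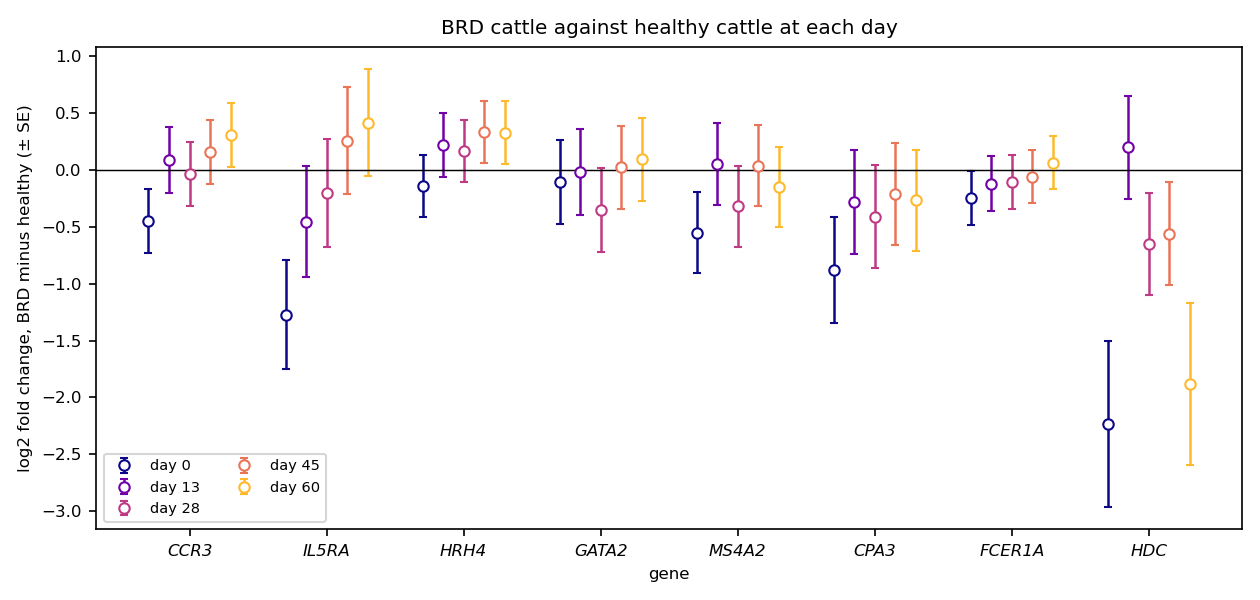
Log2 fold change of BRD minus healthy cattle for each gene at each of the 5 days, with standard errors, as the mean over the 3 supplements; open points have an FDR of 0.10 or higher, which holds for all 40 values. IL5RA goes from -1.27 at day 0 to 0.42 at day 60, and HDC, near the limit of counting, has the widest errors.

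With the counts of each animal summed over its days, so that each animal entered once, BRD minus healthy ranged from -0.48 ± 0.20 for HDC (FDR = 0.87) to 0.14 ± 0.21 for HRH4 (FDR = 0.94). The summed difference was 0.05 ± 0.20 for CCR3, -0.06 ± 0.17 for FCER1A, -0.08 ± 0.27 for GATA2, -0.19 ± 0.27 for MS4A2, -0.22 ± 0.35 for IL5RA and -0.31 ± 0.32 for CPA3. None of the 8 was called by edgeR or DESeq2, and 0% of all genes were called by edgeR, with 983 at an unadjusted p below 0.05 and 13 called by DESeq2. Means over animals were 36.9 ± 12.6 CPM (SD, n = 14) in BRD and 37.8 ± 15.1 CPM (n = 12) in healthy cattle for CCR3, 6.38 ± 2.08 and 6.46 ± 1.54 CPM for FCER1A, and 8.32 ± 4.20 and 8.63 ± 4.07 CPM for GATA2. They were 16.35 ± 9.80 and 19.99 ± 10.67 CPM for IL5RA, 0.924 ± 0.616 and 1.13 ± 0.597 CPM for CPA3, and 0.11 ± 0.0371 and 0.144 ± 0.0494 CPM for HDC. MS4A2 had 6.12 ± 3.11 and 6.89 ± 3.02 CPM and HRH4 13.24 ± 4.93 and 11.88 ± 4.49 CPM.

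The third question was whether the supplements differed. Supplements were assigned to whole pens, with AAC in pens 2 and 8, COMBO in pens 5 and 6, and INR in pens 3, 4 and 7. As steers were moved between pens during the study, these numbers name pen groups and not fixed places. The tests took animals as replicates and had no pen term, so supplement and pen group cannot be told apart. On the summed counts, none of the 8 genes was called in AAC minus INR, COMBO minus INR or AAC minus COMBO by edgeR or DESeq2, and none had an unadjusted p below 0.05. The sums include day 0, which the paper does not take to reflect supplementation, so they can understate a difference that arose later. All genes gave 0% in each of the 3 pairs by edgeR, with 1387, 667 and 1179 genes at an unadjusted p below 0.05, and DESeq2 called 62, 17 and 43. IL5RA averaged 20.7 ± 9.17 CPM in AAC (n = 8), 20.07 ± 11.96 in COMBO (n = 7) and 14.8 ± 9.70 in INR animals (n = 11), and the 3 groups overlapped. Its AAC minus INR difference of 0.54 ± 0.41 (FDR = 0.76) was the widest of that pair, and it was -0.0358 in healthy cattle alone. GATA2 averaged 9.84 ± 4.9 CPM in AAC, 7.03 ± 2.16 in COMBO and 8.38 ± 4.32 in INR animals, and 0.49 ± 0.35 (FDR = 0.88) was the widest value of AAC minus COMBO. In COMBO minus INR the widest values were -0.48 ± 0.25 for HDC, 0.43 ± 0.43 for IL5RA and 0.39 ± 0.24 for CCR3 (each FDR = 1.0).

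CCR3 averaged 43.6 ± 15.9 CPM in COMBO, 37.4 ± 12.5 in AAC and 33.3 ± 12.2 in INR animals. FCER1A averaged 7.22 ± 1.5, 5.62 ± 1.995 and 6.34 ± 1.81 CPM in AAC, COMBO and INR, HRH4 14.8 ± 5.49, 10.97 ± 2.06 and 12.1 ± 5.04 CPM, and MS4A2 6.40 ± 2.69, 6.19 ± 2.49 and 6.71 ± 3.75 CPM. CPA3 averaged 1.06 ± 0.575, 0.990 ± 0.510 and 1.01 ± 0.723 CPM. No order of the supplements was shared by all of these genes. The change over days by supplement, tested with the animal as a block, called none of the 8 genes by edgeR or DESeq2, while 0.0056% of all genes were called, 807 were at p below 0.05 before adjustment and DESeq2 called 4.

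The spread was divided between animals and, separately, between days. A share grows with the number of groups, here 26 animals against 5 days, so the shares do not rank animal against day. Each is set beside its median over all genes. Differences between animals held 47.48% of the variance of log2 CPM for CCR3, 50.53% for IL5RA, 57.5% for GATA2, 56.89% for MS4A2, 47.2% for CPA3, 47.2% for FCER1A, 61.3% for HRH4 and 27.6% for HDC, against a median of 42.9% over all genes tested. Differences between days held 27.2% for FCER1A and between 7.52% and 14.8% for the other 7, against a median of 5.78%. The 5-day mean of IL5RA ran from 3.02 CPM in animal 43 to 35.7 CPM in animal 6, an 11.8-fold range. GATA2, CPA3 and MS4A2 were all lowest in animal 17, and the highest to lowest ratio was 6.73, 6.84 and 5.77. HRH4 ranged 4.56-fold, FCER1A 3.96-fold and CCR3 3.41-fold.

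**Figure D4:**
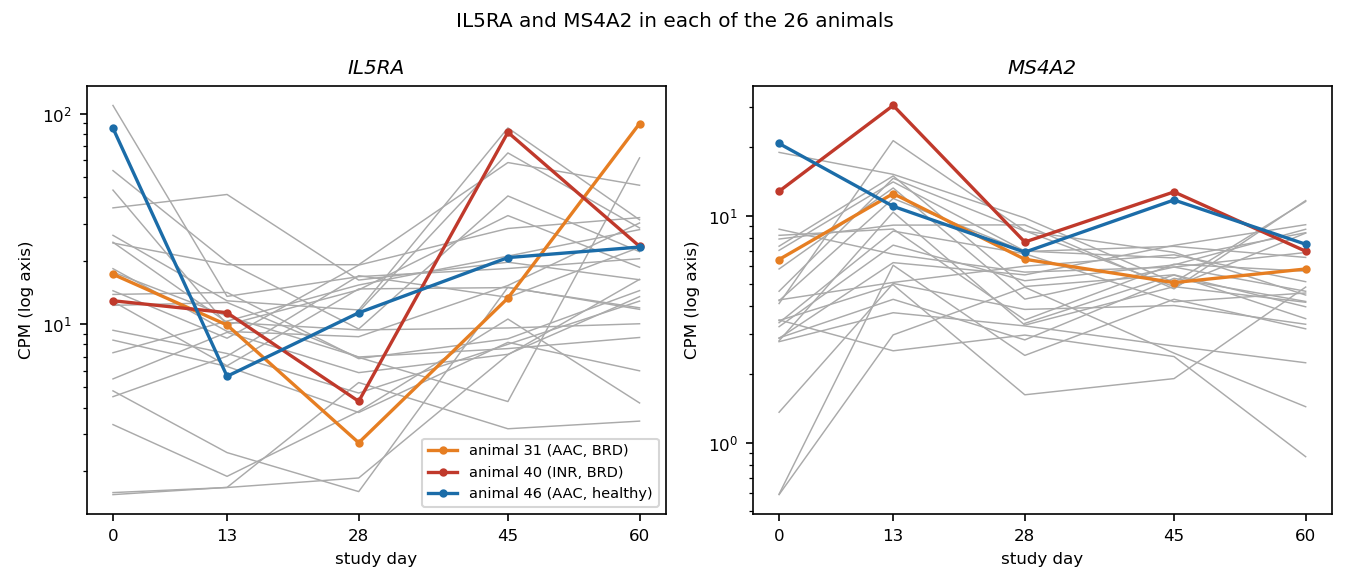
CPM of IL5RA and MS4A2 over the study days in each of the 26 animals (log axis, 1 line for each animal), with 3 animals in colour that were chosen after their values were seen. IL5RA peaked at day 0 in animal 46 (85.19 CPM), at day 45 in animal 40 (81.4 CPM) and at day 60 in animal 31 (89.6 CPM), and MS4A2 of animal 40 reached 30.6 CPM at day 13.

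Animals partly kept their order from day 0 to day 60, and the same values for other genes were not computed. Across 26 animals Pearson's r between the log2 CPM of these days was 0.60 for HRH4 (rho = 0.56, permutation p = 0.0012), 0.59 for MS4A2 (rho = 0.58, permutation p = 0.0019), 0.57 for GATA2 (rho = 0.64, permutation p = 0.0026) and 0.55 for FCER1A (rho = 0.50, permutation p = 0.0039), each with an adjusted p of 0.007 or 0.0078 over the 8 genes. IL5RA had 0.41 (rho = 0.35, adjusted permutation p = 0.056) and fell to 0.29 without the 2 animals farthest from the median of day 0. CPA3 had 0.38 (rho = 0.43, adjusted permutation p = 0.076), CCR3 0.31 (rho = 0.32, adjusted permutation p = 0.13) and HDC 0.30 (rho = 0.22, adjusted permutation p = 0.13). Without the 2 farthest animals r was 0.63 for HRH4, 0.47 for MS4A2, 0.44 for GATA2 and 0.38 for FCER1A.

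Levels of the 8 genes were related to each other across animals. Of the 28 pairs, 19 had a permutation p of Pearson's r below 0.10 after adjustment over the pairs, on the mean log2 CPM of each animal. The share among pairs of other genes was not computed, so the count cannot be called particular to these genes. The highest was GATA2 with MS4A2 (r = 0.91, rho = 0.90, adjusted permutation p = 9.3e-05), followed by CPA3 with MS4A2 (r = 0.84, rho = 0.85) and GATA2 with CPA3 (r = 0.82, rho = 0.84). All 3 had a raw p of 1e-05, the smallest that the permutations can give, and kept an r of 0.87, 0.79 and 0.82 without the 2 farthest animals. HRH4 was related to GATA2 (r = 0.73, rho = 0.68) and to IL5RA (r = 0.68, rho = 0.63), with adjusted permutation p of 0.0002 and 0.0007. CCR3 was related to IL5RA (r = 0.65, rho = 0.69, adjusted permutation p = 0.0016) and to HRH4 (r = 0.60, rho = 0.65, adjusted permutation p = 0.0042). HDC had r of 0.27 or less with each of the other 7 genes.

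Some of these relations were weaker without the 2 animals farthest from the median of the first-named gene. Leaving out the ends of a gene's range can itself lower r, so these falls do not show dependence on few animals. IL5RA with FCER1A had r = 0.49 (rho = 0.27, adjusted permutation p = 0.028) and 0.11 without the 2 farthest animals, and MS4A2 with FCER1A went from 0.46 to 0.23. GATA2 with FCER1A had 0.61 over all animals and 0.43 without the 2 farthest, and was 0.79 among the 14 BRD and 0.17 among the 12 healthy animals. GATA2 with MS4A2 was 0.93 in BRD and 0.89 in healthy animals, CCR3 with IL5RA 0.62 and 0.70, and IL5RA with HRH4 0.75 and 0.70. Whether the labels differ in these correlations was not tested.

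**Figure D5:**
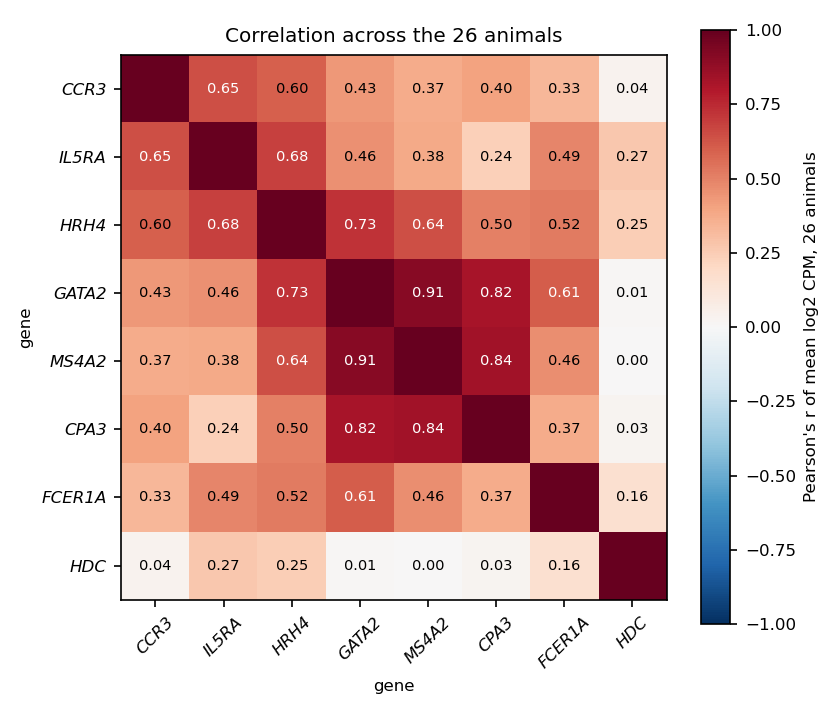
Pearson's r between the 8 genes across the 26 animals, from the mean log2 CPM of each animal over its days. GATA2, MS4A2 and CPA3 share r of 0.82 to 0.91, CCR3, IL5RA and HRH4 share r of 0.60 to 0.68, and HDC is at 0.27 or below with every other gene.

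Correlations were also taken within animals. After the mean of each animal and each day was taken out, r over all libraries was 0.76 for CCR3 with IL5RA, 0.74 for CCR3 with HRH4 and 0.72 for IL5RA with HRH4. It was 0.80 for GATA2 with MS4A2, 0.75 for GATA2 with FCER1A and 0.65 for GATA2 with CPA3. It was 0.13 for CCR3 with GATA2 and 0.13 for IL5RA with GATA2, while HRH4 had 0.47 with GATA2 and 0.52 with MS4A2. These values are a description, since libraries of an animal and genes of a library share depth and cell make-up, and the pairs given were chosen after their values were seen.

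The genes whose pattern over all libraries was most like each member came from the 17853 genes tested, with Pearson's r of log2 CPM. For IL5RA they included ALOX5 (0.92), LOC112449608 (0.92), ALOX15 (0.88) and LOC100297044 (0.88). ALOX5 and ALOX15 are lipoxygenases that make leukotrienes and other lipid mediators from arachidonic acid. For HRH4 they were LOC100297044 (0.83), KCTD15 (0.82), PTGDR2 (0.82), LOC112445089 (0.82) and LOC112446426 (0.78), of which PTGDR2 is the prostaglandin D2 receptor of eosinophils, basophils and type 2 lymphocytes. For CCR3 they were LYPD6 (0.81), GATA1 (0.79), GFI1B (0.78), PRKAG2 (0.74) and LOC112445089 (0.73), and GATA1 and GFI1B are transcription factors of erythroid, megakaryocyte and eosinophil or basophil precursors.

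GATA2 was most like GCSAML (0.93), MS4A2 (0.86), LOC100139881 (0.80), GZMB (0.78) and CPA3 (0.78). The same names led MS4A2, with GCSAML at 0.88, and CPA3, with GZMB at 0.74 and GCSAML at 0.68. GZMB encodes granzyme B, a protease of cytotoxic granules. FCER1A was most like GATA2 (0.70), GCSAML (0.67), DCLK2 (0.66), PEA15 (0.65) and C3 (0.64). HDC had no close neighbour, with DNAJC19 first at 0.40, then IMMT (0.39), HOXB7 (0.39), PAX2 (0.37) and ZAN (0.37).

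Beyond the 8 markers, 14 further eosinophil granule and lineage genes could be tested, and they did not move one way. At days 13, 28, 45 and 60, 2, 3, 6 and 5 were called higher and 3, 4, 2 and 4 lower, and their median log2 fold change lay between -0.05 and 0.21. RNASE2, an eosinophil granule ribonuclease, rose by 2.41, 2.23, 2.48 and 1.69 at the 4 days on the log2 scale, but had no count in 46 libraries. PRG3, an eosinophil granule protein, rose by 2.12 at day 13, 1.66 at day 28, 2.06 at day 45 and 1.17 at day 60. ALOX15 rose by 1.14 at day 45 and 1.28 at day 60, and SMPD3, a sphingomyelinase, by 1.0 and 1.15 on those days. CCR1, a chemokine receptor that monocytes and neutrophils share, was lower at all 4 days (-0.68, -0.84, -0.67 and -0.63), and CEBPE, a factor of granulocyte maturation, was lower at days 13 (-0.73) and 28 (-0.97). From day 28 to day 45, 5 of the 14 were higher and 1 was lower: ALOX15 rose by 1.05, CEBPE by 0.79, SMPD3 by 0.77 and PTGDR2 by 0.54, while PRSS33 fell by 0.38.

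Of 12 basophil and mast cell genes tested, 4, 3, 4 and 4 were called higher and 4, 2, 1 and 2 lower. GCSAML rose by 0.79 at day 13, 0.41 at day 45 and 0.42 at day 60, and fell from day 13 to day 28 (-0.51, FDR = 0.087). LTC4S, the leukotriene C4 synthase, rose by 0.72, 1.05, 0.62 and 1.0 at the 4 days. SLC45A3 was lower at day 13 (-0.44) and rose by 0.57, 0.70 and 0.58 at days 28, 45 and 60, and TPSB2, a tryptase with no count in 25 libraries, rose by 1.28, 1.14, 1.25 and 0.86 at the 4 days. KIT, the stem cell factor receptor, was lower at day 13 (-0.37), IL1RL1, the IL-33 receptor, at all 4 days (-0.61, -0.91, -0.82 and -0.72), and MITF at days 13 (-0.24), 28 (-0.21) and 60 (-0.32). ENPP3, a surface marker of activated basophils, had no count in any library.

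Genes that carry the IgE receptor signal moved by small steps. Of 13 tested, 4, 3, 5 and 6 were higher and 2, 1, 1 and 1 lower at the 4 days. The kinase FYN rose by 0.29 at day 13, 0.23 at day 28 and 0.19 at day 60. At day 45 VAV1, SYK and LYN rose by 0.14, 0.18 and 0.22. GAB2, an adaptor of the receptor, was lower at days 28 (-0.39) and 60 (-0.28), and SYK was lower at day 13 (-0.10). Most of these genes work in many blood cells, and LYN and SYK had means of 799 and 668 CPM, here without TMM scaling.

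Of 12 cytokine, receptor and signalling genes of the type 2 response that could be tested, 1, 0, 3 and 1 were higher and 5, 7, 6 and 6 lower at the 4 days. IL4R, which IL-4 and IL-13 share, had -0.21, -0.26, -0.15 and -0.22 at the 4 days, IL13RA1 -0.39, -0.53, -0.32 and -0.48 at the 4 days, and IL7R -0.43, -0.67, -0.56 and -0.45. Among the cytokines, IL5 had no count in any library, IL13 none in 120, IL33 none in 84 and IL4 none in 71, while TSLP averaged 0.341 CPM, without TMM scaling, and had none in 10. Of the eosinophil chemoattractants, CCL11 (eotaxin) had no count in any library, and the 3 that could be tested were lower at all 4 days. These were CCL5, with -0.63 at day 13, CCL24, with -1.64 at day 13, and CCL8, with -1.49, the last 2 with no count in 53 and 37 libraries. Among the other histamine genes, HRH1 was lower at days 13 (-0.42) and 28 (-0.69), HRH2 at day 28 (-0.36), and HNMT, which inactivates histamine, at all 4 days (-0.30, -0.36, -0.25 and -0.36). EPX, PRG2, CLC, RNASE3, TPSAB1 and CMA1 were not found under these symbols among the 32395 genes, so they could not be tested.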

How the data were processed

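Whole blood RNA of 26 steers at 5 study days was sequenced as stranded mRNA libraries with paired-end reads. Per the labels and the study's methods, the authors trimmed reads with Trimmomatic 0.39, aligned with HISAT2 (genome build ARS-UCD1.3), assembled transcripts with StringTie 2.2.0 and made the deposited gene counts with its prepDE script, which derives counts from coverage. The strand setting is not given in the sources used here. The deposited table held raw counts of 32395 genes, of which 5403 had none.

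Groups came from the labels. Counts were tested with edgeR 4.0.16 in R 4.3.3 (low-count filter, 17853 genes kept, TMM, common dispersion, quasi-likelihood tests). P-values were adjusted by Benjamini and Hochberg's method across every gene kept, with a threshold of 0.1. Day comparisons had the animal as a block. Deviations of libraries of the same animal had a median correlation of 0.387 over 256 pairs, against -0.01 over 6400 pairs of different animals and days. BRD minus healthy at each day was fitted on means of day, supplement and label, without the animal as a block, so libraries of an animal were treated as independent. Supplement and label were also tested on counts summed per animal, where animals with 5 libraries and the 1 with 4 entered alike. Animals were taken as the replicates on the summed counts, although supplements were assigned to whole pens. Correlations used log2 CPM with a prior count of 2 and 100000 permutations (scipy 1.17.1). limma 3.58.1 and DESeq2 1.42.0 gave alternatives. Of the tests, only the day comparison and BRD minus healthy on summed counts were run on simulated data.

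The members and gene lists were chosen with earlier results of these data known, and the comparisons between neighbouring days were added after the data were seen. From the other lists, the genes named in the text were those with the smallest p among called genes, up to 3 for each list and comparison, and other days of the same genes, genes without counts and a few further list genes were added after their values were seen. Gene overlap was read from RefSeq (ARS-UCD2.0), which is not the build of the counts, so no coordinates are given. One gene among those most like IL5RA is not reported here.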

Additional observations from a re-analysis of the deposited data

Results flagged for a closer look

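Each gene was screened for a sample far from the others of its group, in groups of 4 to 10 libraries of the same supplement, label and day. Of 192 such groups, 22 (11.5%) held one by Dixon's criterion, and 21 of the 22 were high. Chance flags about 1 in 20 groups of normally distributed, independent values, but CPM values are skewed and the groups share animals and related genes, so that rate is no reference for this count and the list is a description. They came from 8 animals, and values below are CPM with the nearest other library of the group after each.

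Animal 40, a BRD animal on INR, stood high for CCR3 at day 45 (127.7, next 45.0), IL5RA at day 45 (81.4, next 14.9) and GATA2 at day 13 (25.6, next 12.1). It also stood high for CPA3 at day 13 (2.97, next 1.28), day 45 (3.79, next 1.35) and day 60 (3.23, next 0.986), and for MS4A2 at day 0 (12.8, next 4.65) and day 13 (30.6, next 14.6). Its day 60 RNA had the lowest integrity number of the series.

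Animal 46, a healthy animal on AAC, stood high at day 0 for CCR3 (72.7, next 22) and IL5RA (85.19, next 13.8). It did so at day 28 for GATA2 (16.8, next 6.75), at day 45 for CPA3 (2.96, next 0.998) and at day 60 for MS4A2 (7.48, next 3.97). Animal 31, a BRD animal on AAC, stood high at day 60 for CCR3 (113.8, next 50.8) and IL5RA (89.6, next 32).

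Animal 23, a BRD animal on INR, stood high at day 28 for IL5RA (14.7, next 6.93) and HRH4 (20.2, next 9.92), and animal 29 of the same group at day 60 for IL5RA (61.5, next 23.4). Among healthy INR animals at day 13, animal 30 stood high for IL5RA (19.1, next 10.9) and animal 10 for FCER1A (11.1, next 6.14). Animal 57, a healthy COMBO animal, was high for CCR3 at day 60 (60.7, next 48.4) and low for GATA2 at day 45 (4.55, next 6.31).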

How the results depend on the processing

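Of the alternatives to each count of genes called, 164 stayed within 1.5 times the reported count and 14 did not, and in the fits that left out 1 animal 2 counts did not. Without the animal block (no replicate block), 2 of the 8 genes were called at day 28, 2 at day 45, 2 at day 60 and 1 from day 13 to day 28, where the blocked fit called 4, 5, 5 and 2, and the calls lost were those of GATA2, CPA3 and HRH4. In healthy cattle alone the counts were 4, 2, 1 and 2 at the 4 days, then 0 from day 13 to day 28 and 1 from day 28 to day 45. In BRD cattle alone 1 was called at day 28, 1 from day 13 to day 28 and 1 from day 28 to day 45. At an FDR below 0.05, 1 was called from day 13 to day 28. Leaving out 1 animal gave 6 to 7 genes at day 13, 2 to 4 at day 28 (2 without animal 43), 5 at days 45 and 60, 1 to 3 from day 13 to day 28 (1 without animal 39, 3 without animal 43), 2 from day 28 to day 45 and 0 in every other comparison.

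Values that changed sign were near 0 or came from part of the animals. Without the block, MS4A2 had -0.103 at day 28, -0.0516 at day 45, -0.0378 at day 60 and 0.0138 from day 45 to day 60, and IL5RA had -0.0259 from day 45 to day 60. In healthy cattle alone CCR3 had -0.12 and -0.0313 at days 13 and 28, IL5RA -0.50 and -0.43 at days 45 and 60, MS4A2 -0.0828 and -0.0203 at days 45 and 60, and HDC -0.0408 at day 60. Between neighbouring days in healthy cattle alone, HDC had 0.24 from day 13 to day 28, GATA2 -0.0052 and MS4A2 -0.0886 from day 28 to day 45, and MS4A2 0.0625 from day 45 to day 60. In healthy cattle alone IL5RA had -0.0358 in AAC minus INR. In BRD cattle alone HRH4 had 0.14 at day 28, IL5RA 0.26 from day 13 to day 28 and GATA2 -0.0181 from day 45 to day 60. In the pens that held both labels, BRD minus healthy was 0.42 at day 28 and 0.29 over summed counts for IL5RA, and -0.37 at day 13 and 0.059 at day 60 for HDC. Leaving out 1 animal, MS4A2 ran from -0.0022 to 0.19 at day 28 and from -0.10 to 0.00064 from day 45 to day 60, and HRH4 from -0.13 to 0.0047 at day 28. IL5RA ran from -0.14 to 0.0398 from day 13 to day 28, from -0.0316 to 0.249 from day 45 to day 60, and from -0.15 to 0.60 in BRD minus healthy at day 45. From day 45 to day 60 GATA2 ran from -0.0118 to 0.0971 and CPA3 from -0.027 to 0.1. The causes were not tested.

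Over all genes, the fits without the block called 3673, 4212, 3228 and 3645 at the 4 days, where the blocked fits called 6142, 6748, 5733 and 6245, and 96, 2678 and 378 between neighbouring days, where the blocked fits called 360, 5356 and 1663. From day 13 to day 28 DESeq2 called 595. Healthy cattle alone gave 2773, 2051 and 2982 at days 13, 45 and 60 and 15, 2878 and 0 between neighbouring days, and BRD cattle alone 2650, 3276, 3618 and 3062 and 66, 1778 and 221. In BRD minus healthy at day 0, 3 genes were called, against 90 by DESeq2, 11 with RLE scaling, 12 with the stricter filter, 0 by limma-voom, 7 without the supplement term, 0 in that day alone and 1645 in the pens that held both labels. At days 13, 28, 45 and 60, with 0, 1, 0 and 1 called, those pens gave 65, 4 and 12 at the last 3 of these and over 65 at day 13, and DESeq2 gave 35, 29, 25 and 17. At day 13 the fit without the supplement term gave 19, and at day 28 limma-voom 10. Day by label gave 4 without the block, and day by supplement, with 1 called, gave 24 without the block, 4 by DESeq2 and 2 with no filter. On summed counts, with 0 called, BRD minus healthy gave 13 by DESeq2 and 5 in those pens, DESeq2 gave 62, 17 and 43 in the supplement pairs, and BRD cattle alone gave 273 in AAC minus INR and 417 in AAC minus COMBO. At an FDR below 0.05, 154 genes were called from day 13 to day 28, 989 from day 45 to day 60 and 0 in BRD minus healthy at day 0. The other changes of these comparisons by over 1.5 times were by 1 gene. HDC did not pass the stricter filter (mean CPM of 1), and DESeq2 gave it no adjusted p in AAC minus INR and COMBO minus INR. Depth limits HDC and CPA3 most, at medians of 6 and 37 counts.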
